A study of Mus musculus with 5 samples.

Results

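RYBP peaks that lie far from protein-coding genes and carry no H2AK119ub peak were examined in mouse embryonic stem cells. They were chosen by measured peak positions, so their number is a description. Starting from the 9564 RYBP peaks of wild-type cells, the 8236 on the 17 autosomes other than 6 and 8 were taken. A peak was kept if it shared no base pair with an H2AK119ub peak of DDX5 knockout or of wild-type cells, and if its centre lay more than 2 kb from the start and the end of every protein-coding gene. Of the 8236 peaks, 4140 (50.3%) overlapped neither H2AK119ub list, 2624 (31.9%) were far from gene ends, and 1138 met both conditions. These 1138 are called unmarked distal peaks. The other 1486 distal peaks are called marked distal peaks, and the peaks within 2 kb of a gene end were 3002 unmarked and 2610 marked gene-end peaks.

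The cells were of the embryonic stem cell line MPI-II, grown on feeder cells in serum with LIF, the MEK inhibitor PD0325901 and a GSK3 inhibitor. H2AK119ub was profiled by chromatin immunoprecipitation and sequencing in DDX5 knockout cells and in wild-type cells, and RYBP with an antibody named DEDAF, an alias of RYBP, in wild-type cells only. To knock out Ddx5, which encodes a DEAD-box RNA helicase, exon 2 was cut by Cas9 nickase directed with a guide pair, and the labels describe monoclonal lines, so clone and genotype cannot be told apart. There was 1 library in each group, so no difference below has a replicate check, and the 95% intervals cover counting error only. The knockout list held 20994 H2AK119ub peaks, against 24235 in the wild-type list, and read depth is unknown. Peak lists give no expression, so the cell type could not be checked against marker genes.

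RYBP is a subunit of the variant forms of Polycomb repressive complex 1 (PRC1), in which it binds the RING1 catalytic subunit and stimulates the ubiquitination of histone H2A that the mark is named for. Variant complexes are recruited to CpG-rich DNA by KDM2B and to other sites by transcription factors such as MGA with MAX, E2F6 and YY1. H2AK119ub is best known in embryonic stem cells over the CpG islands of silent developmental genes.

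No genome sequence was used here, so sequence is shown at annotated transcription starts that fell within unmarked distal peaks. Such a start lies inside its gene or belongs to a non-coding gene, because the ends of protein-coding genes were kept at a distance. The RefSeq entries (GRCm38.p6, the coordinates of mm10) give the 250 bases before each start, printed 5′ to 3′ with every CpG dinucleotide in capitals. Hivep2 and Ptch1 are shown as internal starts under very wide peaks. Nrxn3 is the internal start farthest from a protein-coding gene end, Cbx7 belongs to a Polycomb gene, and Malat1 and Dleu2 are starts of non-coding genes. Cbx7, Malat1 and Dleu2 among these were chosen after their peaks had been seen.
Hivep2: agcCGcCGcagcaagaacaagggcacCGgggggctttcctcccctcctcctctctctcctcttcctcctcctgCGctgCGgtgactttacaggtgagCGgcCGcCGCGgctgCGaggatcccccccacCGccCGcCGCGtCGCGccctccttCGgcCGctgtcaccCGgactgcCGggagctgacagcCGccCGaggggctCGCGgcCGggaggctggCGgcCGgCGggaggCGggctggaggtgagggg
Ptch1: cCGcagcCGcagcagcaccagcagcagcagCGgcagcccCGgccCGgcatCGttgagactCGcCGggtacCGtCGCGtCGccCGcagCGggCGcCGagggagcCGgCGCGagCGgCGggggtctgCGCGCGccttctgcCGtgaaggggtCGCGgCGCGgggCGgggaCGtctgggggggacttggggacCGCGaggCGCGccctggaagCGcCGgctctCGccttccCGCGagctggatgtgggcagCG
Nrxn3: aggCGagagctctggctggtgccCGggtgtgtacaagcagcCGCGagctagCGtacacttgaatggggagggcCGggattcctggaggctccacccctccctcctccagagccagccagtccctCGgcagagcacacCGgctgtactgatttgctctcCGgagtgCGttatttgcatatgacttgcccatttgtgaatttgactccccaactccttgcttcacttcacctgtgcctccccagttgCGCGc
Cbx7: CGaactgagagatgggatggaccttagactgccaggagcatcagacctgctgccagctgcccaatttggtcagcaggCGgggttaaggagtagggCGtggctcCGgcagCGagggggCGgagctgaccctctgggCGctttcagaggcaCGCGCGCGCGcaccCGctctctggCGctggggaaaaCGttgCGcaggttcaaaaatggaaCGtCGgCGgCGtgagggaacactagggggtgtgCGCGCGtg
Dleu2: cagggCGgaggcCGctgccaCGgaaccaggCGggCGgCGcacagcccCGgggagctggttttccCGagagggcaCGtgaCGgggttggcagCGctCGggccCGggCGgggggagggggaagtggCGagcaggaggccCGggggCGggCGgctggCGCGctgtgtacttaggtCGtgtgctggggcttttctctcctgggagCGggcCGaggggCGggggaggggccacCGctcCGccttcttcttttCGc
Malat1: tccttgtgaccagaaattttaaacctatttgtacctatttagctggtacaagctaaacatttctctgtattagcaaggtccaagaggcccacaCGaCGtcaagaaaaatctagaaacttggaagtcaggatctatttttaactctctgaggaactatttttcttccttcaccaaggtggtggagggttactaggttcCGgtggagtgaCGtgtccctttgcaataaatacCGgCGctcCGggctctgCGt
These windows are chr10:13966129-13966378 on the plus strand for Hivep2, chr13:63565736-63565985 on the minus strand for Ptch1 and chr12:89812233-89812482 on the plus strand for Nrxn3. For Cbx7 the window is chr15:79932647-79932896, for Dleu2 chr14:61682374-61682623 and for Malat1 chr19:5802673-5802922, all 3 on the minus strand. The Ptch1 window held 41 CpG dinucleotides at 78.4% G and C, the Hivep2 window 29 at 75.2%, the Dleu2 window 27 at 74.8% and the Cbx7 window 23 at 64.8%. The Nrxn3 window held 12 at 60%, and the Malat1 window held 8 at 44.0%. The next widest peaks over internal starts after Hivep2 and Ptch1, in Ptpn3 and Mlxipl, are not shown. Their windows held fewer CpG dinucleotides, 12 at 64.8% for Ptpn3 and 8 at 53.2% for Mlxipl. The Dleu2 window contained CACGTG, the E-box bound by MAX dimers.

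Unmarked distal peaks lay within 2 kb of 13 microRNA genes at 8 places, and the mature sequences of the best-known of them are shown because they name the transcripts next to which RYBP was found. The letters are those of RefSeq, with the seed (bases 2 to 8) in capitals.
let-7i-5p: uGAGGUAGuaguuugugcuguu
miR-17-5p: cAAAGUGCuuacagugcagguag
miR-20a-5p: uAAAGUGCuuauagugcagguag
miR-18a-5p: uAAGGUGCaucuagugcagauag
miR-19a-3p: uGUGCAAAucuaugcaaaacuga
miR-19b-3p: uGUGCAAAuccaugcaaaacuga
miR-92a-3p: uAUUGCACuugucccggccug
miR-760-3p: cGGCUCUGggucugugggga
By seed, miR-17-5p and miR-20a-5p form one group and miR-19a-3p and miR-19b-3p another, while miR-18a-5p differs from the first group within the seed.

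Unmarked distal peaks were the narrowest of the RYBP peaks. Their median width was 1273 bp (quartiles 1062 and 1583), against 1646 bp (1317 and 2133) for marked distal peaks, 1500.5 bp for unmarked gene-end peaks and 1911.5 bp for marked gene-end peaks. The narrowest unmarked distal peak spanned 544 bp and the widest 6233 bp. A width of at least 2 kb was reached by 94 of 1138 unmarked distal peaks (8.26%, 6.80 to 10.0), against 462 of 1486 marked distal peaks (31.1%). Both at gene ends and far from them, the RYBP peaks without H2AK119ub were thus narrower than those with it. A wider peak also offers more bases that an H2AK119ub peak can touch, and the part of this in the difference was not tested.

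**Figure D1:**
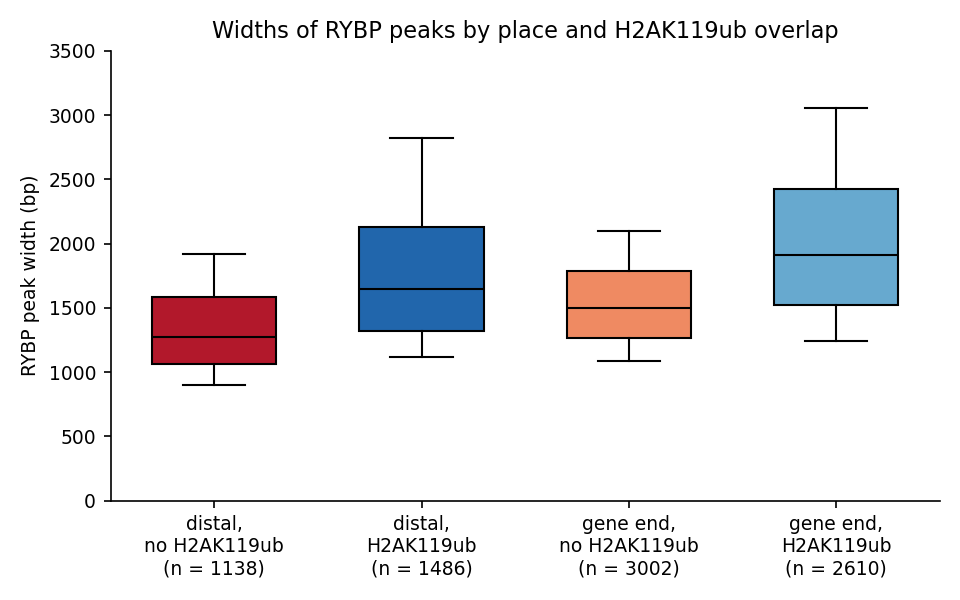
Widths of RYBP peaks in bp for the 1138 unmarked and 1486 marked distal peaks and the 3002 unmarked and 2610 marked gene-end peaks (boxes, quartiles with the median as a line; whiskers, percentiles 10 and 90). The unmarked distal peaks had a median of 1273 bp and the marked gene-end peaks one of 1911.5 bp.

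Among distal RYBP peaks, 43.4% (41.5 to 45.3) carried no H2AK119ub, against 53.5% (52.2 to 54.8) of RYBP peaks at gene ends, a difference of -10.1 percentage points (-12.4 to -7.81). The share depended on width. It was 214 of 293 (73.0%) among distal peaks under 1000 bp, 257 of 683 (37.6%) from 1500 to 2000 bp, and 9 of 130 (6.92%, 3.68 to 12.6) from 3000 bp upwards. It also depended on distance from genes. Between 2 and 5 kb from the nearest protein-coding gene end, 249 of 800 distal peaks (31.1%, 28.0 to 34.4) were unmarked, and beyond 100 kb 102 of 178 (57.3%, 50.0 to 64.3), a difference of 26.2 points (18.1 to 33.9).

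The share was also higher beyond 100 kb than between 2 and 5 kb within each of 2 width groups. Among peaks under 1.5 kb wide the share was 46.0% (40.8 to 51.3) between 2 and 5 kb and 67.6% (58.4 to 75.6) beyond 100 kb, and among wider peaks it was 20.04% (16.6 to 23.9) between 2 and 5 kb and 40.3% (29.4 to 52.3) beyond 100 kb. Both differences kept intervals above 0, at 21.5 points (10.9 to 31.1) and 20.3 points (8.67 to 32.7). The share did not rise at every step between. Among peaks under 1.5 kb wide it was 59.5% at 5 to 10 kb and 54.8% at 10 to 20 kb. Among wider peaks it was 40% at 20 to 50 kb and 34.8% at 50 to 100 kb. Width still varied within each group, and the part of this in the differences was not tested. The distance threshold was itself part of the choice of peaks, so these shares describe the lists.

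**Figure D2:**
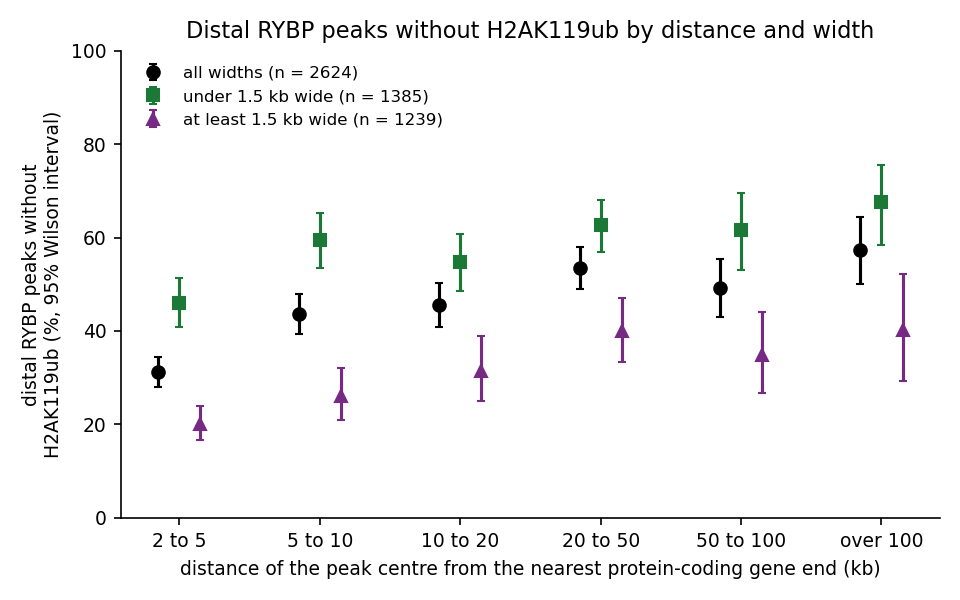
Percentage of distal RYBP peaks without H2AK119ub (points, with 95% Wilson intervals) by distance of the peak centre from the nearest protein-coding gene end in kb, for all 2624 distal peaks and for those under and over 1.5 kb wide. The share was 31.1% at 2 to 5 kb and 57.3% beyond 100 kb, and narrow peaks lay above wide ones in every distance group.

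The median distance of an unmarked distal peak from the nearest protein-coding gene end was 13820 bp (quartiles 5814 and 38179), against 7841 bp for marked distal peaks. The nearest end was a 5′ end for 531 of the 918 peaks whose nearest gene had a listed strand (57.8%, 54.6 to 61.0). Just inside the 2 kb limit lay peaks in Gramd1c at 2008 bp, Mfsd7a and Btbd10 at 2012 bp, Scg3 at 2016 bp and beside Wdr88 at 2030 bp. Just outside it, unmarked peaks lay at 1991, 1987, 1973, 1970 and 1970 bp. The smallest gaps to an H2AK119ub peak were 7 bp in Nfasc, 12 bp beside Dok5, 14 bp in Smco4 and 21 bp in both Rgl1 and Crtac1. On the other side of that limit, distal peaks that overlapped H2AK119ub least shared 5, 7, 8, 9 and 10 bp with it.

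Position inside genes was not used to choose the peaks. A protein-coding gene held the centre of 629 of 1138 unmarked distal peaks (55.3%, 52.4 to 58.1), against 1004 of 1486 marked distal peaks (67.6%), a difference of -12.3 points (-16.0 to -8.54). Of the sequence more than 2 kb from protein-coding gene ends, 39.3% lay inside a gene, so both kinds of distal RYBP peak were found in genes more often than their sequence alone gives. Read the other way, 509 of 991 distal peaks between genes (51.4%) and 629 of 1633 inside genes (38.5%) were unmarked, a difference of 12.8 points (8.92 to 16.7).

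The annotation was then used to sort the unmarked distal peaks by what lay under them. Of the 1101 that were not on chromosome 18, for which no starts were listed, 232 (21.1%, 18.8 to 23.6) held an internal start of a protein-coding gene, and 317 (28.8%, 26.2 to 31.5) held a protein-coding or lncRNA start. Marked distal peaks held a protein-coding start in 237 of 1437 cases (16.5%) and any start in 333 (23.2%). The differences were 4.58 points (1.52 to 7.68) and 5.62 points (2.18 to 9.08). The largest group, 651 peaks (59.1%), held no start and lay over 2 kb from the ends of every annotated gene, against 940 marked distal peaks (65.4%).

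Peaks over starts were wider than the rest in both distal classes. Median widths with and without a start were 1488 and 1206 bp for unmarked and 1944 and 1583.5 bp for marked distal peaks. The 232 unmarked distal peaks over a protein-coding start had a median width of 1512 bp and the 85 over a lncRNA start alone 1418 bp, against 1181.5 bp for the 326 peaks with no start or non-coding gene end inside a gene and 1211 bp for the 325 between genes. The median gap to the nearest wild-type H2AK119ub peak was 98927 bp for peaks over protein-coding starts and 44776 bp for those over lncRNA starts, against 38435.5 bp inside and 33295 bp between genes for peaks with no start and 51650 bp for peaks at other non-coding gene ends. It was 9494 bp for the 14 peaks at tRNA genes and 72447.5 bp for the 6 at microRNA genes.

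**Figure D3:**
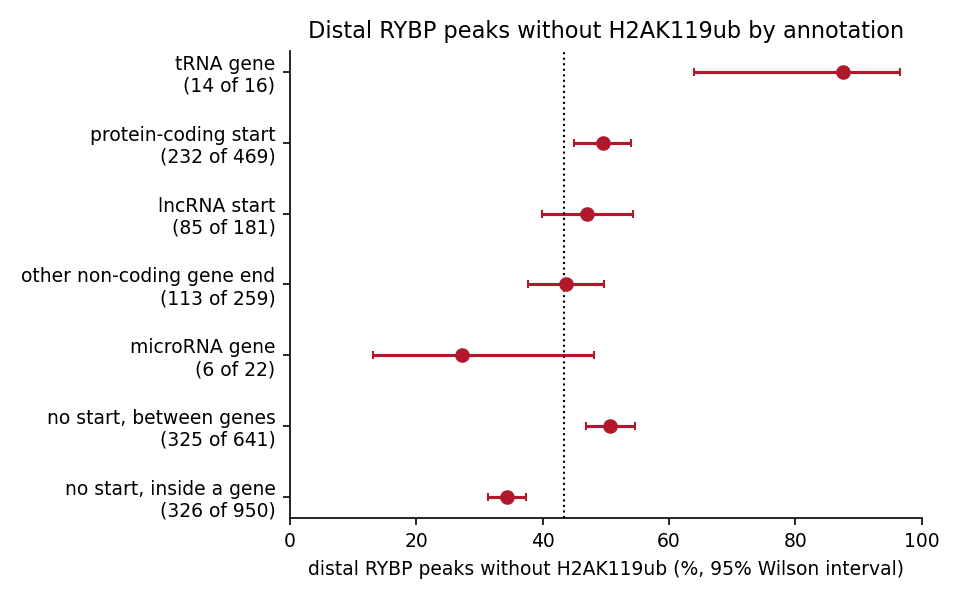
Percentage of distal RYBP peaks without H2AK119ub (points, with 95% Wilson intervals) for each kind of annotation, with the number unmarked of all distal RYBP peaks of that kind and the share of all distal peaks as a dotted line at 43.4%. Each peak counts once, starts before other kinds; peaks at tRNA genes with no such start lay highest, at 14 of 16, and peaks inside genes with no start lay at 34.3%.

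Starts under unmarked distal peaks were rich in CpG. In the 250 bases before 232 protein-coding starts, the median CpG observed over expected was 0.758 (quartiles 0.594 and 0.910) at 62.8% G and C, with a median of 17 CpG dinucleotides. Marked distal peaks had a median of 0.719, unmarked gene-end peaks 0.816 and marked gene-end peaks 0.745. Starts held by no RYBP peak, 1 for each of 10784 genes, had a median of 0.353 and 5 CpG dinucleotides. An observed over expected value of at least 0.6 at 50% G and C or more was found before 166 of the 232 starts (71.6%, 65.4 to 77.0), against 148 of 238 under marked distal peaks (62.2%), a difference of 9.37 points (0.851 to 17.7). Unmarked gene-end peaks were higher, at 1956 of 2434 starts (80.4%), and the unmarked distal starts differed from them by -8.81 points (-15.1 to -3.15). Under marked gene-end peaks 1232 of 1697 starts were CpG-rich (72.6%), and the unmarked distal starts differed from them by -1.05 points (-7.51 to 4.79), which counting error spans.

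The same measures were taken at lncRNA starts. Of 116 lncRNA starts under unmarked distal peaks, 61 (52.6%, 43.6 to 61.4) were CpG-rich by that measure, against 53 of 125 (42.4%) under marked distal peaks, a difference of 10.2 points (-2.39 to 22.3) that counting error spans. CpG-rich lncRNA starts were 221 of 272 (81.3%) under unmarked gene-end peaks and 170 of 246 (69.1%) under marked ones, from which the unmarked distal starts differed by -28.7 points (-38.6 to -18.5) and -16.5 points (-27.1 to -5.80). Their median observed over expected value was 0.671, against 0.541 under marked distal, 0.847 under unmarked gene-end and 0.763 under marked gene-end peaks. Of starts with no RYBP peak, 539 of 7535 (7.15%) were CpG-rich. Malat1, with 8 CpG dinucleotides, lay below the median of 13 for lncRNA starts under unmarked distal peaks, and Dleu2, with 27, lay above it.

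**Figure D4:**
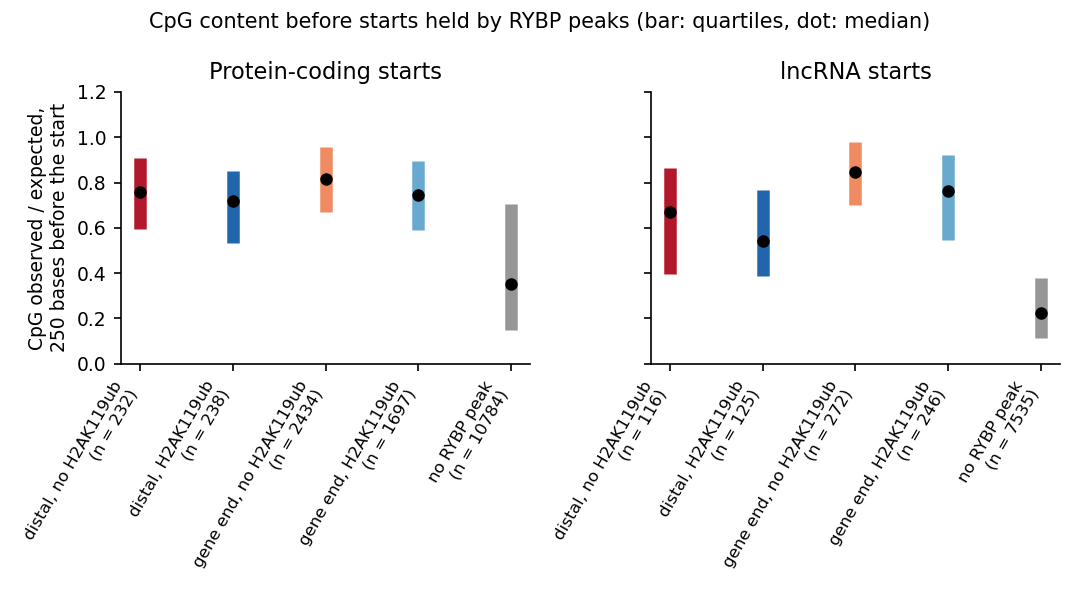
CpG observed over expected in the 250 bases before protein-coding (left) and lncRNA (right) starts, by class of the RYBP peak that holds the start (bars, quartiles; dots, medians). The medians for unmarked distal peaks were 0.758 and 0.671, against 0.353 and 0.225 for starts with no RYBP peak.

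Short motifs, 9 in number, were searched on both strands of the same windows. The E-box of MAX, MGA and MYC was taken as CACGTG and the E2F site as GCGGGAA. ETS factors were represented by CCGGAAG, and SP and KLF factors by the GC box GGGCGG. For NRF1 the core of its site was used, with the letters TGCGCA, and for NFY the letters CCAAT. The letters for YY1 were AAGATGG, those for CREB TGACGTCA and those for the TATA box TATAAA. The GC box and the E2F letters can share bases, and no motif contains another. Before protein-coding starts, the ETS letters were present under 23 of 232 unmarked distal peaks (9.91%, 6.70 to 14.4), against 9 of 238 marked distal ones (3.78%). The NRF1 letters were present in 34 (14.7%), against 17 (7.14%), and the E2F letters in 22 (9.48%), against 10 (4.20%). The differences were 6.13 points (1.56 to 11.0), 7.51 points (1.88 to 13.3) and 5.28 points (0.685 to 10.1). The other 6 motifs had intervals that included 0 in that comparison. The ETS, NRF1 and E2F letters each contain a CpG, as do the E-box, GC box and CREB letters. CpG-rich windows were more frequent under unmarked than under marked distal peaks (71.6% against 62.2%). The part of this in the motif differences was not tested. The ETS letters were present before 16.7% of starts under unmarked gene-end peaks, a difference of -6.77 points (-10.3 to -2.02), and before 6.72% under marked ones. The GC box was present in 145 of 232 unmarked distal windows (62.5%), which was -6.36 points (-13.0 to -0.0944) from unmarked and -8.45 points (-15.2 to -2.08) from marked gene-end peaks. Under unmarked gene-end peaks the NRF1 letters were present before 14.7% of starts and the E2F letters before 9.29%. The unmarked distal starts differed from these by -0.0531 points (-4.29 to 5.25) and 0.198 points (-3.17 to 4.79). Neither frequency was thus particular to the distal peaks. Against marked gene-end peaks, the NRF1 letters were 4.58 points (0.322 to 9.88) more frequent under unmarked distal peaks. The TATA box differed there by -3.31 points (-5.16 to -0.193). Among all 22999 listed genes with 1 start each, the ETS letters were present before 7.34%, the NRF1 letters before 6.53% and the E2F letters before 3.90%.

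The E-box was present before 17 of 232 protein-coding starts under unmarked distal peaks (7.33%), against 18 of 238 under marked ones (7.56%), with an interval of the difference from -5.12 to 4.68 points. Before lncRNA starts it was present in 15 of 116 unmarked distal cases (12.9%), against 7 of 125 marked ones (5.60%), 7.33 points apart (-0.0654 to 15.2). Under unmarked gene-end peaks it was present before 11.0% of lncRNA starts, 1.90 points apart (-4.63 to 9.88). Under marked gene-end peaks this was 5.69%, 7.24 points apart (1.11 to 14.9). All listed genes had it in 6.03%, and lncRNA starts with no RYBP peak in 4.39%. For the GC box, unmarked distal lncRNA starts differed from unmarked and marked gene-end ones by -14.1 points (-24.6 to -3.37) and -13.1 points (-23.7 to -2.14). Against marked distal peaks, the intervals of 3 of 9 motifs left out 0 for protein-coding starts and of 0 of 9 for lncRNA starts. Over all 3 other classes and both kinds of gene, 11 of 54 intervals left out 0, and none is adjusted for their number. A match describes the letters in these windows and is not a bound site.

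The 230 genes with an unmarked distal peak over an internal start were examined at their outer ends. A peak of any class counted if any of its bases lay within 2 kb of an end. The edge of the same unmarked distal peak could therefore count as RYBP at an end, and such cases were not set apart. RYBP was found within 2 kb of an end of 80 of them (34.8%, 28.9 to 41.1), against 5632 of 14631 protein-coding genes over 4 kb (38.5%) and 977 of 2306 such genes with 2 or more listed starts (42.4%, 40.4 to 44.4). Knockout H2AK119ub lay at an end of 28 (12.2%, 8.56 to 17.03), against 21.1% of all such genes and 23.4% of those with 2 or more listed starts. Wild-type H2AK119ub lay at an end of 32 (13.9%, 10.0 to 19.0), against 25.9% of all such genes and 28.7% of those with several. At 135 of the 230 genes (58.7%) neither RYBP nor H2AK119ub was found at an outer end, against 51.8% of all such genes and 46.3% of those with several listed starts. The 230 genes had a median length of 60.2 kb, against 24.0 kb for all genes over 4 kb. They were chosen by a peak that touches neither H2AK119ub list. The H2AK119ub shares at their ends are thus not independent of the choice and are a description.

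Hivep2, a zinc-finger transcription factor, had the widest peak over an internal start, chr10:13964134-13968204, 4071 bp wide and 4560 bp from the 5′ end of the gene. The nearest H2AK119ub peaks lay 95454 bp away in the knockout and 160719 bp away in the wild type. Ptch1, the receptor of Hedgehog ligands, had a peak of 3509 bp, chr13:63563509-63567017, in a different setting. The nearest H2AK119ub peaks lay 4549 bp away in the knockout and 1664 bp away in the wild type, and another RYBP peak, 5147 bp away, overlapped H2AK119ub of both genotypes. Mlxipl, the carbohydrate-responsive factor ChREBP, held 3106 bp of RYBP over an internal start, and Ptpn3, a tyrosine phosphatase, 3271 bp over a start of its own and one of the lncRNA Gm12536.

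The other peaks among the 8 widest were of mixed kinds. The widest of all, chr17:39842797-39849029 with 6233 bp, lay on Rn18s-rs5, a copy of the 18S ribosomal RNA gene, where reads from other copies cannot be told apart, and without it the median width stayed at 1273 bp. In Cpeb2, which encodes a regulator of mRNA translation, 3677 bp lay over the start of the non-coding gene Gm7854. In Nr3c1, the glucocorticoid receptor gene, the peak was 3963 bp wide, and in Kcnn2, which encodes a calcium-activated potassium channel, 3119 bp.

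The 5 peaks farthest from any protein-coding gene end lay in Pde4d, Nrxn3 and Ptprd and beside Hsf2. Pde4d, a phosphodiesterase of cyclic AMP, held a pair 606489 and 554570 bp from its 5′ end, 50665 bp apart and at least 992232 bp from H2AK119ub. Nrxn3, a neurexin of synapses, held a peak at 522609 bp from an end, chr12:89811760-89812891, over an internal start. The nearest knockout H2AK119ub peak lay 2754635 bp away, while a wild-type one began 189 bp beside it. Ptprd, a receptor phosphatase, showed the same arrangement, with H2AK119ub at 2658105 bp in the knockout and at 1044 bp in the wild type. The peak beside Hsf2 lay 481929 bp from that gene.

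Unmarked distal peaks lay nearer to H2AK119ub than unmarked gene-end peaks did. Their median gap was 55551.5 bp to the knockout list and 50182 bp to the wild-type list, against 116403 bp and 93019.5 bp for unmarked gene-end peaks. A wild-type H2AK119ub peak lay within 5 kb of 197 (17.3%, 15.2 to 19.6), against 280 of 3002 gene-end peaks (9.33%), a difference of 7.98 points (5.63 to 10.5). More than 50 kb from both lists lay 486 (42.7%, 39.9 to 45.6), against 1778 (59.2%), a difference of -16.5 points (-19.9 to -13.1). Within 5 kb, 112 unmarked distal peaks had H2AK119ub of both genotypes, 56 of the knockout alone and 85 of the wild type alone. For the 3002 unmarked gene-end peaks the same counts were 116, 65 and 164. The lean to the wild type was thus not particular to the distal peaks.

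**Figure D5:**
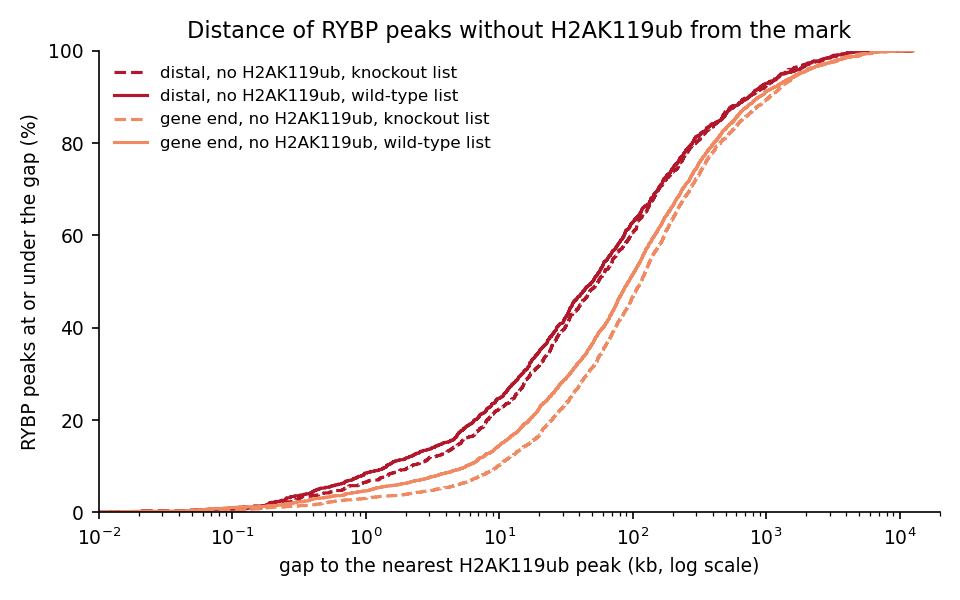
Cumulative percentage of RYBP peaks by gap to the nearest H2AK119ub peak (kb, log scale), for the 1138 unmarked distal and the 3002 unmarked gene-end peaks, with the knockout list as dashed and the wild-type list as full lines. The curves of the unmarked distal peaks lie to the left for most of the range, with medians of 55551.5 bp to the knockout list and 50182 bp to the wild-type list.

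Other RYBP peaks were seldom close. The median gap from an unmarked distal peak to the next RYBP peak was 43332.5 bp, against 13329 bp for marked distal peaks. It was larger for unmarked gene-end peaks, at 64887 bp, and 28835.5 bp for marked gene-end peaks. Within 5 kb, 124 unmarked distal peaks (10.9%) had a neighbour, against 6.80% of unmarked gene-end and 31.9% of marked distal peaks. The neighbour was another unmarked distal peak for 27, a marked distal peak for 33, an unmarked gene-end peak for 41 and a marked gene-end peak for 23. These classes differ in size, with 1138, 1486, 3002 and 2610 peaks in the same order. The closest run of 3 spanned 8228 bp at Bmp4, a secreted signalling protein, chr14:46379950-46388177, with H2AK119ub of both genotypes at most 7479 bp from each peak. The next spanned 13485 bp beside Mdm1 and the third 16067 bp beside Skida1, and there the nearest H2AK119ub peaks were 29984 bp and 294812 bp away, both in the knockout.

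Non-coding genes other than lncRNAs formed a small group, in which tRNA genes stood out by their share. An end of a gene that is not protein-coding lay within 2 kb of 266 unmarked distal peaks (23.4%, 21.0 to 25.9), against 311 marked distal peaks (20.9%), 2.45 points apart (-0.746 to 5.68). LncRNA genes accounted for 217 of the 266, against 261 of the 311. A tRNA gene was that close to 18 unmarked distal peaks (1.58%, 1.00 to 2.49), against 6 marked distal ones (0.404%), 1.18 points apart (0.430 to 2.11). Thus 18 of the 24 distal RYBP peaks at tRNA genes were unmarked (interval 55.1% to 88.0%), against 43.1% of the other distal peaks. The median gap of the 18 to wild-type H2AK119ub was 12088.5 bp, against 50182 bp for all unmarked distal peaks. Both lists lay within 10 kb of 33.3% of the 18 (16.3 to 56.3). That interval includes the 16.5% of all unmarked distal peaks. The 18 are also not all separate places, as a pair beside Prss16 lay 136 bp apart. Of 331 tRNA genes on these autosomes, 46 had any RYBP peak, and for 23 of them it was an unmarked distal one. For 9 it was a marked distal one, for 13 an unmarked gene-end one and for 1 a marked gene-end one. RYBP without the mark at tRNA genes was thus not particular to the distal peaks. The tRNA group was chosen after values had been seen.

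RefSeq names nuclear tRNA genes by the amino acid and the anticodon. The widest of the 18 peaks, 2352 bp at chr11:95858113-95860464, lay at n-TQttg6, a glutamine tRNA gene, with H2AK119ub 20943 bp away in the knockout and 14206 bp away in the wild type. The peak at n-TRtct2, an arginine tRNA gene, was 2198 bp wide and also covered Mir760. A tRNA of tryptophan, n-TWcca5, had 1614 bp, and peaks at alanine, valine, histidine, asparagine, methionine, isoleucine, serine, glycine, threonine and tyrosine tRNA genes followed. The 18 peaks spanned 980 to 2352 bp with a median of 1328.5 bp. Near-identical tRNA copies share reads, so the copy that was bound is uncertain.

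The let-7i gene and the miR-17 cluster had a peak before their hairpins. For Mirlet7i, on the minus strand at chr10:122985640-122985724, the peak chr10:122985983-122987138 began 258 bp upstream and was 1156 bp wide, and H2AK119ub lay 53546 bp away in the knockout and 51544 bp away in the wild type. The let-7 family, whose seed is shown in capitals above, is known to rise when embryonic stem cells differentiate. For the miR-17 cluster, on the plus strand with its first hairpin at chr14:115043671-115043754, the peak chr14:115041983-115043077 ended 593 bp upstream of Mir17 and was 1095 bp wide. A second RYBP peak, chr14:115039568-115041854 with 2287 bp, lay 128 bp farther upstream and overlapped a knockout H2AK119ub peak of 648 bp, while the nearest wild-type peak was 49480 bp from the unmarked one. The 6 hairpins of the cluster, whose mature sequences fall into the seed groups given above, began within 1349 bp of the unmarked peak's end.

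Peaks also lay at Mir760, Mir1904 in Pde4d and Mir7671 beside Irf1, whose hairpins the peaks covered, and within 2 kb of Mir6402 in Elavl2, Mir8115 in P2rx7 and Gm51277 in Napepld. In all, 13 of 1036 microRNA genes had an unmarked distal peak and 26 a marked distal one. The shares of peaks near a microRNA gene, 0.703% and 1.21%, differed by -0.508 points (-1.29 to 0.302), which counting error spans.

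Among named lncRNAs, Malat1, an abundant nuclear RNA, had a peak of 2076 bp over its start, with H2AK119ub 31018 bp away in the knockout and 30947 bp away in the wild type. Dleu2, the host transcript of Mir15a and Mir16-1, had one of 1850 bp, chr14:61681660-61683509, over its start. A RYBP peak of 3350 bp lay 1034 bp from it, where H2AK119ub was found in both genotypes, at 937 bp in the knockout and 1091 bp in the wild type. Platr22, a transcript named for its association with pluripotency, had 1956 bp over its start, and Arhgap33os 1975 bp. Peg13, an imprinted transcript within Trappc9, had 1845 bp with no H2AK119ub peak nearer than 258894 bp.

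Gene lists were counted by whether an unmarked distal peak lay inside the gene or had it as the nearest protein-coding gene, as was the case for 1034 of 18496 genes (5.59%). Developmental regulators, most of them transcription factors of embryonic patterning, had such a peak for 9 of 48 (18.8%, 10.2 to 31.9). For 2 of the 9 a peak lay inside the gene, against 594 of the 1034 genes. The rest were counted only as the nearest gene, up to 52606 bp away at Pax6. The 11 peaks of this list lay 191 to 8861 bp from wild-type H2AK119ub with a median of 2347 bp. The median for all unmarked distal peaks was 50182 bp. The peaks were chosen by the same H2AK119ub lists, so these gaps are a description. Cdx2, a trophectoderm and intestinal factor, had a peak of 2083 bp that lay 4948 bp from H2AK119ub in the knockout and 4690 bp in the wild type. At Sox9 the gaps were 997 and 191 bp, and at Pax2 5938 and 1652 bp, in the same order. Others with such a peak included Meis1, Pax6, Pax9, Pax5 and Isl1.

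The pluripotency list had 4 of 32 genes with an unmarked distal peak (12.5%, 4.97 to 28.1). For 0 of them a peak lay inside the gene, so all were counted only as the nearest gene. The median gap of their 5 peaks to wild-type H2AK119ub was 176792 bp. The gaps ranged from 4805 bp, at Utf1, to 468342 bp. These gaps too are a description, as the same H2AK119ub lists chose the peaks. Sox2, a core pluripotency factor, was flanked by peaks of 1469 bp, 7443 bp from its 5′ end, and 1524 bp, 11690 bp from its 3′ end. The nearest H2AK119ub peaks were 2682082 bp away in the knockout and 446716 bp away in the wild type. Mycn had a peak 31234 bp from its 3′ end, and Tbx3 had one 106533 bp away.

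Of the Polycomb subunits 3 of 32 genes (9.38%, 3.24 to 24.2) had such a peak. Cbx7, the chromodomain subunit of canonical PRC1 that prevails in embryonic stem cells, had 1113 bp over the internal start shown above, with H2AK119ub 61268 bp away in the knockout and 12806 bp in the wild type. Auts2, a subunit of a variant PRC1, held a pair of 2633 and 1158 bp, and Wdr5 had one 4108 bp from its 3′ end. Housekeeping genes had 1 of 27 (3.70%, 0.657 to 18.3), beside Actb. With lists this short the intervals of the last 3 lists include the 5.59% of all genes.

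Most genes with an unmarked distal peak inside held a single one. Of 594 such genes, 561 held 1, 28 held 2, 4 held 3 and 1 held 4. Nfia, a developmental transcription factor, held the 4, of 1363 to 1944 bp, and 3 of them lay 1254, 2823 and 457 bp from a knockout H2AK119ub peak, with the nearest wild-type peaks 113, 12538 and 18265 bp away. Zfp536, Bsn, Sergef and Pde4d held 3 each. Bsn, which encodes the presynaptic protein bassoon, had H2AK119ub of either genotype at most 11921 bp from each of its peaks, while the 3 peaks of Pde4d lay at least 491771 bp from it. Across the 17 autosomes the density was 0.526 per Mb, with a range of 0.344 on chromosome 3 to 0.659 on chromosome 9.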

How the data were processed

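RYBP was profiled in wild-type cells and H2AK119ub in DDX5 knockout and wild-type cells, with 1 library each. The input libraries of both genotypes were not analysed here. Bowtie2 2.2.5, MACS 1.4 and the build mm10 are named per the submitters' processing notes. Which tool did what, at which threshold and with which input is not given in the sources used here. Each list comes from the authors, who deposited 1 peak list per library, so peaks were called per library. The score column of each deposited list holds 0 for every peak, so no height or enrichment was used. A library with fewer reads gives fewer and narrower peaks, and depth is unknown.

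From these positions, overlap was taken as at least 1 bp, and gaps and distances were computed with Python 3.11.15, numpy 2.4.6, pandas 2.3.3 and scipy 1.17.1. The interval functions were tested on simulated intervals against direct counting. Genes (18496 protein-coding on the 17 autosomes) and starts came from RefSeq tables of GRCm38.p6, with starts as 250 bases before and 50 after, none on chromosome 18. One start was used per gene and peak, the nearest to the peak centre. Shares have Wilson and differences Newcombe intervals (95%), which treat peaks as independent counts, and no p-value was computed.

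The peaks, gene lists and alternatives were chosen with earlier results of these data known. The regions named were the 8 widest, the 5 farthest from protein-coding gene ends, the 5 on each side of the 2 kb limit, up to 8 at microRNA genes and 8 at other named non-coding genes (widest first, predicted genes left out), the 5 genes with most peaks inside, the 3 closest runs of 3, and up to 3 genes per list. The splits by width, distance and annotation, the tRNA group, the motifs and other names were chosen with values in view. The motifs were searched at annotated starts because no genome sequence was used. Alternatives varied the gene-end distance, the gene set, the overlap, the widths, merging, the chromosomes and the H2AK119ub list.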

Additional observations from a re-analysis of the deposited data

How the results depend on the processing

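Of 60 values under 10 alternatives, 44 stayed within the main value's interval (or, for the number of peaks, within 1.5 times it) and 16 moved. No paired analysis was possible because there is 1 library per group. The number of unmarked distal peaks stayed between 872 and 1510 under all 10. With a gene-end distance of 1 kb the share of distal peaks without H2AK119ub was 41.0%, the median width 1307.5 bp and the share inside genes 60.5%; with 5 kb the share without H2AK119ub was 48.7% and inside genes 49.0%. With every RefSeq gene in place of protein-coding ones 61.1% lay inside genes and 0% near a non-coding gene end, by construction. With the whole peak kept away from gene ends the share without H2AK119ub was 46.3%, and with the wild-type list alone 47.5%. An overlap of at least 50% of the RYBP peak gave a share of 57.5%, a median width of 1349.5 bp and a median gap of 22962.5 bp to wild-type H2AK119ub. Requiring no H2AK119ub within 5 kb gave 33.7% and 86202 bp. RYBP peaks of at least 1 kb gave 39.6% and 1376 bp. Merging RYBP peaks within 2 kb and adding chromosomes 6, 8 and X moved none of the 6 values. The overlap rule thus moved the gap by over 1.5 times; a looser rule admits peaks that touch H2AK119ub, at a gap of 0. Unknown depth limits every statement that a region carries no H2AK119ub to the absence of a called peak.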

Other observations

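On the chromosomes set apart, the same conditions were met by 82 of 568 RYBP peaks on chromosome 6, 78 of 693 on chromosome 8 and 9 of 67 on X. Their median widths were 1418, 1596.5 and 1285 bp, and their densities 0.549, 0.604 and 0.0527 per Mb, against 0.526 per Mb over the 17 autosomes. The X chromosome had the lowest density of those counted, with a Poisson interval of 0.0241 to 0.100 per Mb, and it also had few RYBP peaks of any kind.

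Small nucleolar RNA genes were seldom near RYBP. Of 1159, 22 had a RYBP peak within 2 kb of an end, which was an unmarked distal one for 5, a marked distal one for 0, an unmarked gene-end one for 16 and a marked gene-end one for 1.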
